A study of Mus musculus with 2 samples.

Results

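The 8 genes described here are the ligand, receptors and adaptor of reelin signalling (Reln, Vldlr, Lrp8 and Dab1), the Cajal-Retzius cell genes Trp73, Lhx1 and Lhx5, and Ndnf, which marks neurons of the outermost layer. They were chosen by symbol from the 55536 annotated genes and followed in total RNA sequencing libraries of mouse hippocampus. The animals were hybrids of C57BL/6J and CAST/EiJ (strain B6CASTF1/J), aged 10 days and labelled male, with no treatment named. The study holds 1 group of 2 libraries, replicate 1 and replicate 2, each made from 300 ng of RNA. The labels give the tissue as a layer of hippocampus without naming the layer, and the spike-in entry names stranded libraries reduced in ribosomal RNA. Each label names 3 males with its own running numbers, and whether each library pools them is not spelled out. The labels call the libraries biological replicates 1 and 2, but both carry the same donor entry. The sex-linked genes given below show that the libraries do not share their animals. The spread between them may hold both animal and technical parts, which cannot be told apart.

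Reelin is a large secreted glycoprotein. In the developing hippocampus it is released mainly by Cajal-Retzius cells, early-born neurons at the hippocampal fissure and the outer edge of the dentate gyrus, and later by GABAergic interneurons as well. It binds the lipoprotein receptors Vldlr and Lrp8 (also called ApoER2) on radial glia, migrating neurons and, after birth, dendrites. Receptor clustering leads Src family kinases to phosphorylate the adaptor Dab1 on tyrosines, and the signal passes to Crk proteins, phosphatidylinositol 3-kinase and the cytoskeleton. Cajal-Retzius cells die in large numbers in the first weeks after birth in mice, and a part of them stays longer in the hippocampus than in the neocortex.

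The libraries held 32035705 expected counts in replicate 1, against 29747193 in replicate 2, with 15085 genes at a TPM (transcript level scaled for length and depth) of at least 1 in both. The sex-linked genes went against the label of 1 library. Xist, the RNA that coats the inactive X chromosome, had 25 counts in replicate 1, against 30841 counts in replicate 2, while the Y-linked genes Ddx3y and Eif2s3y had 2164 and 1302 counts in replicate 1, against 0 counts each in replicate 2. The second library is therefore called the library labelled male, replicate 2, and sex cannot be told apart from any other difference between the libraries. Markers of hippocampal excitatory neurons were present, with 6 of 6 listed genes detected in both libraries. Camk2a, a synaptic kinase subunit, averaged 835 ± 66.7 TPM, and Prox1, a transcription factor of dentate granule cells, 48.6 ± 1.32 TPM (SD, n = 2). Choroid plexus markers set the libraries apart, with summed levels over 9 genes of 15.6 TPM in replicate 1, against 359 TPM in the library labelled male, replicate 2. Meningeal markers differed the other way, with summed levels over 8 genes of 445 and 188 TPM in the same order. Without Ptgds, the highest of them, the other 7 summed to 112 and 103 TPM, and without Ttr the other 8 choroid plexus genes summed to 7.57 and 19.4 TPM.

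Reln was well expressed in both libraries. The gene spans chr5:21884454-22344702 on the minus strand of mm10. It had 55.6 TPM in replicate 1, against 46.6 TPM in the library labelled male, replicate 2, a mean of 51.1 ± 6.35 TPM (SD, n = 2). That placed it at rank 2104 of the 22015 nuclear protein-coding genes. In whole tissue, fewer cells of a type and less RNA per cell cannot be told apart, for this gene and for each gene below.

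One transcript carried most of the reelin signal. Reln-207, with 65 exons and a coding sequence of 10383 bases, held 74.0% of the gene's TPM in replicate 1, against 78.7% in the library labelled male, replicate 2. By the second quantification, which the authors made from the FASTQ files, the shares were 60.7% and 70.2%. The remainder was spread over 14 other annotated transcripts. The 600-base fragment Reln-212, which starts inside the gene, had 5.14% and 0% of TPM from alignments but 21.7% and 13.0% from FASTQ files. Reln-213, a retained intron, had 3.54% and 4.97% from alignments and 4.44% and 5.10% from FASTQ files.

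Reln-207 differs from Reln-201 by a microexon of 6 bases near the end of the coding sequence, known as a neuron-specific exon of this gene. It lies at chr5:21891562-21891567 on the minus strand and is exon 64 of 65. It is shown in capitals between 12 bases of each neighbouring exon, because the leading coding form is marked by it.
Reln microexon: ggaggtcgtcctAGTAAGcactcgcaaaca
Inclusion, taken as the TPM of transcripts that hold an exon over that of holding and skipping transcripts, was 99.5% in replicate 1, against 100% in the library labelled male, replicate 2. From FASTQ files it was 97.6% and 99.4%. Reln-201 was thus at or near 0 in each of the 4 values. The last exon of Reln-207 is also the longer of the pair, so the value takes in reads of that exon and not the microexon alone.

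The receptors were both present, with Lrp8 the higher. Lrp8 (chr4:107802261-107876840, plus strand) had 76.8 TPM in replicate 1, against 66.9 TPM in the library labelled male, replicate 2, a mean of 71.9 ± 7.03 TPM and rank 1377 among protein-coding genes. Vldlr (chr19:27216484-27254231, plus strand) had 24.3 and 27.5 TPM, a mean of 25.9 ± 2.22 TPM and rank 4413 (SD, n = 2 each). Lrp8 was above Vldlr in each library. The log2 ratio of Lrp8 over Vldlr was 1.66 in replicate 1, against 1.28 in the library labelled male, replicate 2, a mean of 1.47 ± 0.265 (SD, n = 2), or 2.77-fold per length. It was 1.66 and 1.42 from FASTQ-based TPM.

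Vldlr transcripts were led by Vldlr-207, the longest, with 56.1% of TPM in replicate 1, against 51.1% in the library labelled male, replicate 2. Vldlr-202 had 16.6% and 20.0%, and Vldlr-208 had 16.4% and 13.8%. Of the minor forms Vldlr-201, Vldlr-203 and Vldlr-206, each reached 5% in at least 1 library by 1 quantification, with means of 4.76%, 0% and 4.43% from alignments. The coding forms Vldlr-207, Vldlr-202 and Vldlr-208 differ in an exon of 84 bases at chr19:27246593-27246676 that is known to encode the O-linked sugar region next to the membrane. The receptor with this region is the one described as stable at the cell surface, and the one without it as more readily shed. The exon is printed in capitals with 12 bases of each neighbour, since the split between these receptor forms turns on it.
Vldlr exon 16: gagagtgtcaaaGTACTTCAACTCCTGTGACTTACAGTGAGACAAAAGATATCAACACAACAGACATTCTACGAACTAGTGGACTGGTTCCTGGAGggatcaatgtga
The exon is a multiple of 3 bases long, so skipping it keeps the reading frame. Its inclusion was 60.3% in replicate 1, against 56.5% in the library labelled male, replicate 2, a mean of 58.4% ± 2.65 (SD, n = 2). From FASTQ files the mean was 55.9% ± 2.77, so the form with the region was the more abundant by either quantification. Vldlr-207, the only form annotated with the exon, also has the longest last exon, 5127 of its 7971 bases, and reads there enter the value. A further coding exon of 123 bases, at chr19:27236240-27236362, was included at 76.8% ± 3.25 from alignments and 78.5% ± 3.31 from FASTQ files.

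Lrp8 was spread over several forms. Of its 12 annotated transcripts, 7 reached 5% of the gene's TPM in at least 1 library by either quantification, against 6 of 8 for Vldlr. Lrp8-202 led with 42.4% in replicate 1, against 44.7% in the library labelled male, replicate 2, a mean of 43.6% ± 1.59, and had 40.0% ± 0.225 from FASTQ files (SD, n = 2 each). Its annotated coding start is incomplete and its last exon of 4568 bases makes up most of its 6627 bases, and of expected counts, which are not divided by length, it held 72.0% in each library. Reads of that last exon therefore weigh heavily in its share and in the exon values that follow.

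The next form, Lrp8-209, is annotated as a target of nonsense-mediated decay and had 17.1% and 23.4% from alignments, and 25.5% and 28.0% from FASTQ files. The non-coding Lrp8-212 had 14.6% and 12.6% from alignments, against 23.8% and 23.7% from FASTQ files. The complete coding form Lrp8-203 had 7.42% and 6.25% from alignments but was at 0 from FASTQ files in both libraries. Lrp8-206 was the reverse, at 0 from alignments and at 5.35% and 5.99% from FASTQ files. The short fragments Lrp8-208 and Lrp8-207 had means of 7.03% ± 3.89 and 4.68% ± 1.16 from alignments and were at or near 0 from FASTQ files. The shares of the minor forms thus depended on the quantification.

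**Figure D1:**
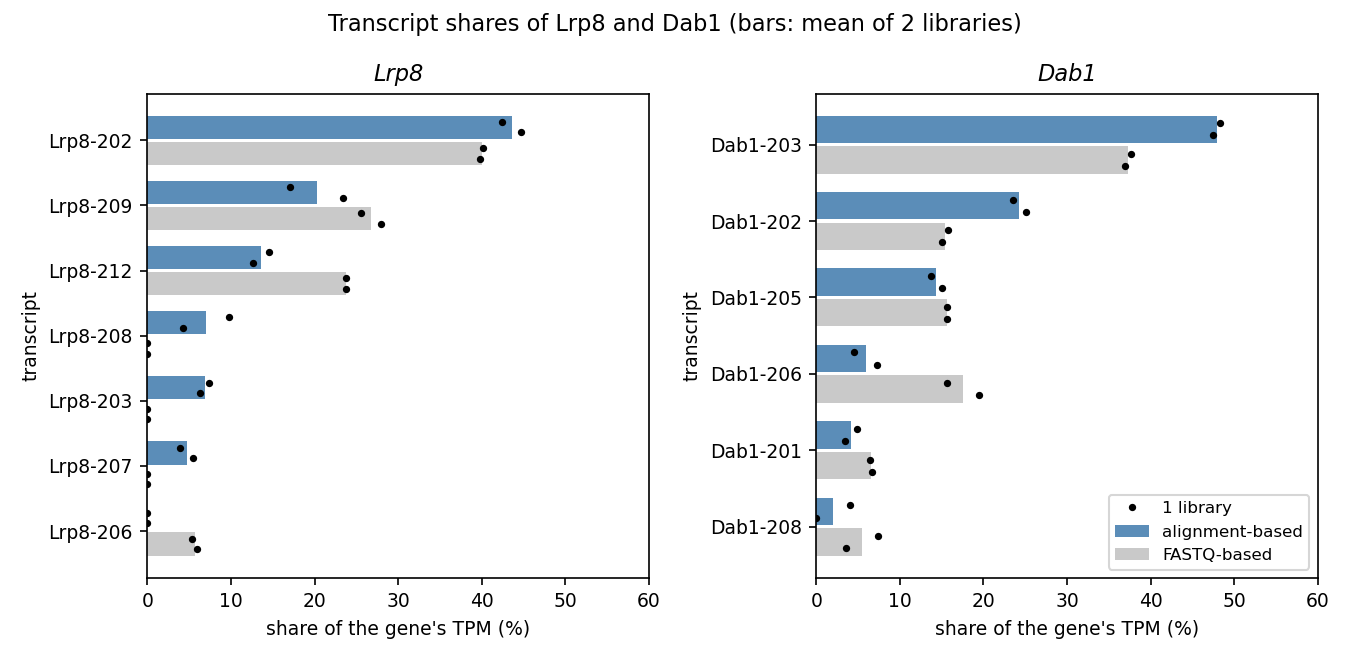
Share of the gene's TPM (%) in each transcript of Lrp8 and Dab1 that reached 5% by either quantification. Bars are means of the 2 libraries (blue from alignments, grey from FASTQ files) and dots are single libraries, replicate 1 above replicate 2 in each bar; Lrp8-202 and Dab1-203 lead by both, at 43.6% and 47.9% from alignments.

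The split of the Lrp8 tail was close to the same in all 4 values. The exon of 177 bases at chr4:107870012-107870188 encodes the proline-rich insert of the receptor's cytoplasmic tail, which binds JIP scaffold proteins and which mice need for the effect of reelin on synaptic plasticity. It is exon 18 of 19 in Lrp8-201 and is shown in capitals with 12 bases on each side, as the transcripts with and without the insert are told apart by it.
Lrp8 exon 18: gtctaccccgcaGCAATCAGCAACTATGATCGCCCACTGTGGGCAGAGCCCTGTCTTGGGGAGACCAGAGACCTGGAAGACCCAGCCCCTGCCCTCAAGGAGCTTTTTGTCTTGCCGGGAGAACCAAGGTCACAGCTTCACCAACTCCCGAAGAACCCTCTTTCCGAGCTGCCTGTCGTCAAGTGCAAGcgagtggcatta
The exon has 57.6% G and C, and its length keeps the reading frame when it is skipped. Inclusion was 39.2% in replicate 1, against 39.4% in the library labelled male, replicate 2, and 38.7% and 38.0% from FASTQ files. Transcripts without the exon thus held more TPM than those with it in both libraries by both quantifications, with means of inclusion of 39.3% ± 0.183 and 38.3% ± 0.505 (SD, n = 2 each). Most of the TPM with the exon was in Lrp8-209, the form annotated for nonsense-mediated decay, with 13.2 of 21 TPM in replicate 1, against 15.7 of 19.8 TPM in the library labelled male, replicate 2. From FASTQ files it was 29.3 of 33.0 and 30.3 of 30.3 TPM, so the value is a split of transcripts and need not be one of receptor proteins.

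In the extracellular part of Lrp8, the exon of 381 bases at chr4:107846239-107846619, which encodes neighbouring ligand-binding repeats, was included at 25.6% ± 2.86 from alignments and 29.0% ± 0.383 from FASTQ files. The exon of 123 bases at chr4:107848281-107848403 was included at 47.3% ± 1.23 and 51.7% ± 1.93. Both values rest in part on Lrp8-209, which holds both exons, and on the non-coding Lrp8-212, which skips the longer exon and holds the shorter. The exon of 225 bases at chr4:107861133-107861357 was included at 100% from alignments and at 92.3% ± 0.638 from FASTQ files (SD, n = 2 each), a difference made by Lrp8-206, which 1 quantification lists at 0.

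**Figure D2:**
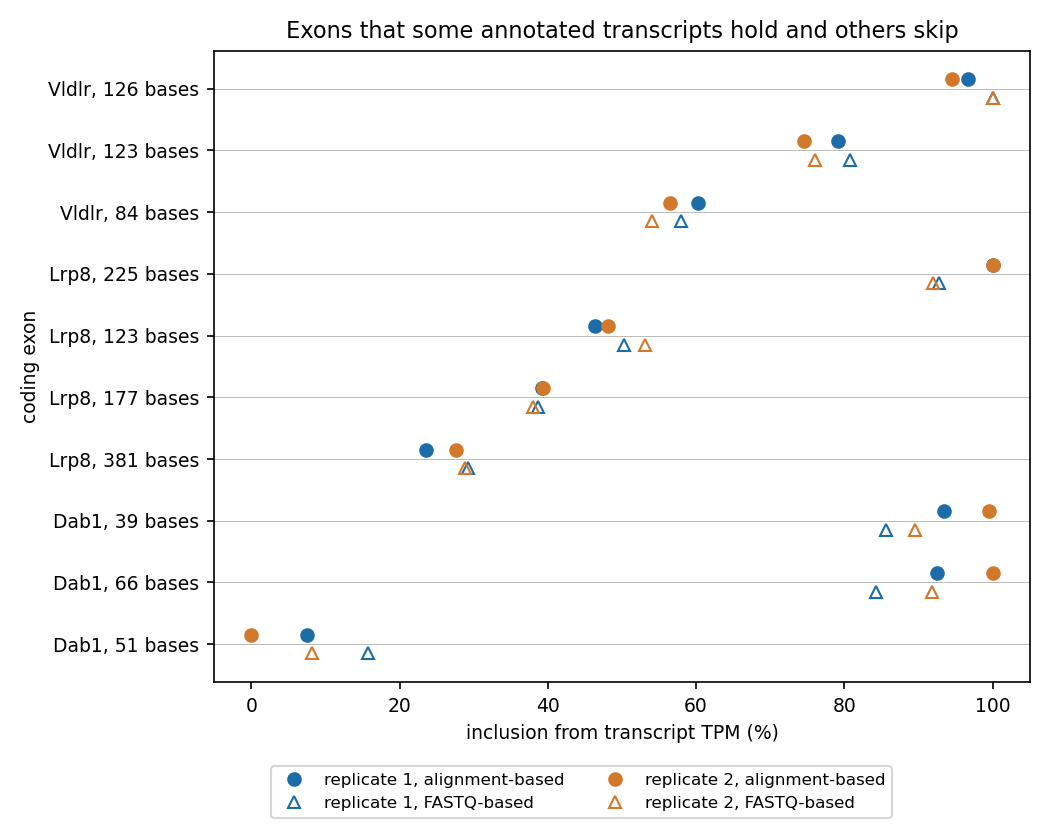
Inclusion (%) of coding exons of Vldlr, Lrp8 and Dab1 that some annotated transcripts hold and others skip, for exons at 95% or less in at least 1 value; rows give the exon length. Filled circles are from alignments and open triangles from FASTQ files, blue for replicate 1 and orange for replicate 2; the 177-base exon of Lrp8 stays between 38.0% and 39.4% in all 4 values, while the 51-base exon of Dab1 ranges from 0% to 15.7%.

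Dab1 (chr4:103619359-104744844, plus strand), the adaptor that docks on the receptor tails, varied least between the libraries, relative to its level. It had 66.0 TPM in replicate 1, against 65.7 TPM in the library labelled male, replicate 2, a mean of 65.8 ± 0.240 TPM (SD, n = 2) and rank 1541. The log2 ratio of Reln over Dab1 was -0.25 and -0.49, so the ligand stood below the adaptor per length in both libraries.

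The leading Dab1 transcript was Dab1-203, with a coding sequence of 1665 bases, at 48.3% in replicate 1, against 47.5% in the library labelled male, replicate 2, a mean of 47.9% ± 0.598. From FASTQ files the mean was 37.3% ± 0.509 (SD, n = 2 each). As a share of expected counts it was 81.7% and 81.1%, and 3332 of its 5278 bases lie in the last exon. Dab1-202, which codes for a shorter protein from 612 bases, had 23.6% and 25.1%, against 15.8% and 15.0% from FASTQ files. The non-coding Dab1-205 had 13.7% and 15.0%. Dab1-201, another short coding form, had 4.91% and 3.50%. Dab1-206 had 4.51% and 7.32% from alignments but 15.6% and 19.5% from FASTQ files.

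Start sites of Dab1 are spread over a long stretch of the gene. Transcripts from the outermost start at position 103619359, Dab1-202 and Dab1-205, held 37.3% and 40.0% of TPM, and those from position 104367590, Dab1-203 and Dab1-207, held 49.3% and 47.9%. The start of the full-length coding form led in both libraries, and it also led from FASTQ files, with 39.3% and 39.5% against 31.4% and 30.8%.

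The tyrosine codons that Src family kinases act on in Dab1 lie close together. A scan of the Dab1-203 reading frame found 11 tyrosine codons, of which those at codons 185, 198, 220 and 232 are the known reelin-regulated sites. The stretch below runs 174 bases from codon 184, over the end of exon 6 and exons 7, 8 and 9 (chr4:104679564-104688442 with introns removed), with every in-frame tyrosine codon in capitals, because the forms of Dab1 differ in how many they hold.
Dab1 tyrosine stretch: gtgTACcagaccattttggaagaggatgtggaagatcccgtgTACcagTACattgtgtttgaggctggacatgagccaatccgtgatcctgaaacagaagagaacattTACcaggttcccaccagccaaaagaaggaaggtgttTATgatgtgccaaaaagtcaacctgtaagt
Exon 7 (39 bases, chr4:104680070-104680108) holds codon 198, exon 8 (66 bases, chr4:104681598-104681663) holds codons 200 and 220, and exon 9 (60 bases) holds codon 232. Dab1-202 holds exon 7 and lacks exons 8 and 9, so its annotation carries the sites at codons 185 and 198 and not those at 220 and 232. It ends before exon 8 and enters neither side of the exon 8 value. Dab1-208 skips exons 7 and 8, which hold the sites at codons 198 and 220 and not those at 185 and 232. In chick retina a Dab1 form without some of these sites is known from progenitor cells. Dab1-208 is a fragment of 641 bases whose coding sequence is annotated as incomplete at both ends. It had 31.1 expected counts in replicate 1, against 0 in the library labelled male, replicate 2. Inclusion of exon 7 was 93.5% and 99.5% and of exon 8 92.5% and 100% from alignments. From FASTQ files the values were 85.6% and 89.5% for exon 7, and 84.3% and 91.8% for exon 8.

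Of Trp73, Lhx1 and Lhx5, Trp73 was the one above 1 TPM from alignments in both libraries. Trp73 (chr4:154056253-154140208, minus strand) encodes p73, a relative of p53 that Cajal-Retzius cells need to survive. It had 2.09 TPM in replicate 1, against 1.95 TPM in the library labelled male, replicate 2, a mean of 2.02 ± 0.0990 TPM (SD, n = 2), from 193 and 185 expected counts. It stood at rank 12263 of the 22015 protein-coding genes, and Reln was 25.2-fold higher per length.

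Trp73 has an outer start, whose product holds the transactivation domain (TAp73), and an inner start, whose product lacks it (ΔNp73) and is the form described in Cajal-Retzius cells. Transcripts from the inner start at position 154097173 had 155 and 150 expected counts, and Trp73-204 from the outer start at position 154140208 had 38.4 and 35.3. By TPM the inner start held 82.8% in replicate 1, against 82.1% in the library labelled male, replicate 2, a mean of 82.4% ± 0.512 (SD, n = 2). From FASTQ files it held 77.7% and 85.3%, so the inner start led in each of the 4 values. Trp73-204 and Trp73-205 each have a last exon of 3074 bases, most of their 5042 and 4752 bases. Reads there may not tell the starts apart, so the 4 values rest on few reads. In the library labelled male, replicate 2, the credibility bounds of TPM deposited for these transcripts overlapped. Trp73-205 was the leading transcript at 67.5% and 82.1%, and Trp73-203 had 15.3% and 0%.

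Promoter windows of the RefSeq starts of this gene are shown. The inner one matches a start counted above and the outer one does not. RefSeq (GRCm38.p6) gives 250 bases before and 50 after each start, 5′ to 3′ on the minus strand, and the table matched 6 of the 8 genes. Every CG dinucleotide is in capitals.
Trp73 inner promoter, chr4:154097124-154097423: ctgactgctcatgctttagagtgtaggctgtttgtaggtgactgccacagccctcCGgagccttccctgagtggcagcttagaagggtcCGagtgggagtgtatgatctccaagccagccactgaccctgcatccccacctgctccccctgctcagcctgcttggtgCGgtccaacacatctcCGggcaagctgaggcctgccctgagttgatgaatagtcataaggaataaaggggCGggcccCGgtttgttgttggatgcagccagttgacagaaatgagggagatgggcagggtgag
Trp73 outer promoter, chr4:154139826-154140125: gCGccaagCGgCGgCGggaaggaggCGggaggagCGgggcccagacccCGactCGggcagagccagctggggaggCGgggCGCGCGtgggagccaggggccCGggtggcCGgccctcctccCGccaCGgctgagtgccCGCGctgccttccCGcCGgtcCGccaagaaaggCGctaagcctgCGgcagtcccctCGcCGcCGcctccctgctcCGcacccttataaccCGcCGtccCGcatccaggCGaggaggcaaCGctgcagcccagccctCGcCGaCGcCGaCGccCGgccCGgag
The inner promoter holds 6 CG dinucleotides and the outer one 39, against a median of 7 over the 32851 promoters of the table. The letters TATAA, searched on both strands, are in the outer window and not in the inner one, and 24.9% of all promoters hold them. The inner RefSeq start coincides with the start of Trp73-201 and Trp73-205, whereas no annotated GENCODE transcript begins at the outer RefSeq start. That outer RefSeq start, at position 154139875, lies inside the first exon of Trp73-204, which runs from position 154140208 to 154139823. The outer window lies wholly in that exon and is not the promoter of the outer start counted above. The CG and TATAA values therefore do not compare the promoters of both counted starts.

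The LIM homeobox genes were near the limit of these libraries. Lhx1 (chr11:84518284-84525535, minus strand), a transcription factor of Cajal-Retzius and other early neurons, had 0.880 TPM in replicate 1, against 0.650 TPM in the library labelled male, replicate 2, from 51 and 42 expected counts. Lhx5 (chr5:120431699-120441223, plus strand), its close relative, which is active in the cortical hem where many Cajal-Retzius cells arise, had 0.300 and 0.210 TPM from 17 and 11 counts. Lhx1 was higher than Lhx5 in both libraries, with log2 ratios of 1.55 and 1.63. Neither reached 1 TPM from alignments or a mean of 100 counts, and from FASTQ files Lhx1 had 1.04 and 0.749 TPM. Lhx1-201 carried 47.0 and 40.5 of the Lhx1 counts, Lhx1-202, Lhx1-203 and Lhx1-204 had 2.92 counts or fewer each, and Lhx5 has 1 annotated transcript.

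Ndnf (chr6:65671590-65712326, plus strand) encodes a secreted neurotrophic factor and marks Cajal-Retzius cells and neurogliaform interneurons. It had 13.4 TPM in replicate 1, against 14.9 TPM in the library labelled male, replicate 2, a mean of 14.1 ± 1.12 TPM (SD, n = 2) and rank 6974. Its coding transcript Ndnf-201 had 72.7% and 66.6% of TPM, but 98.4% and 97.9% of expected counts. The short intron-retaining Ndnf-202 took the remainder, 27.3% and 33.4% of TPM from 33.9 and 43.0 counts, so the TPM of Ndnf rests in part on few reads. From FASTQ files that share was 6.96% and 27.5%.

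**Figure D3:**
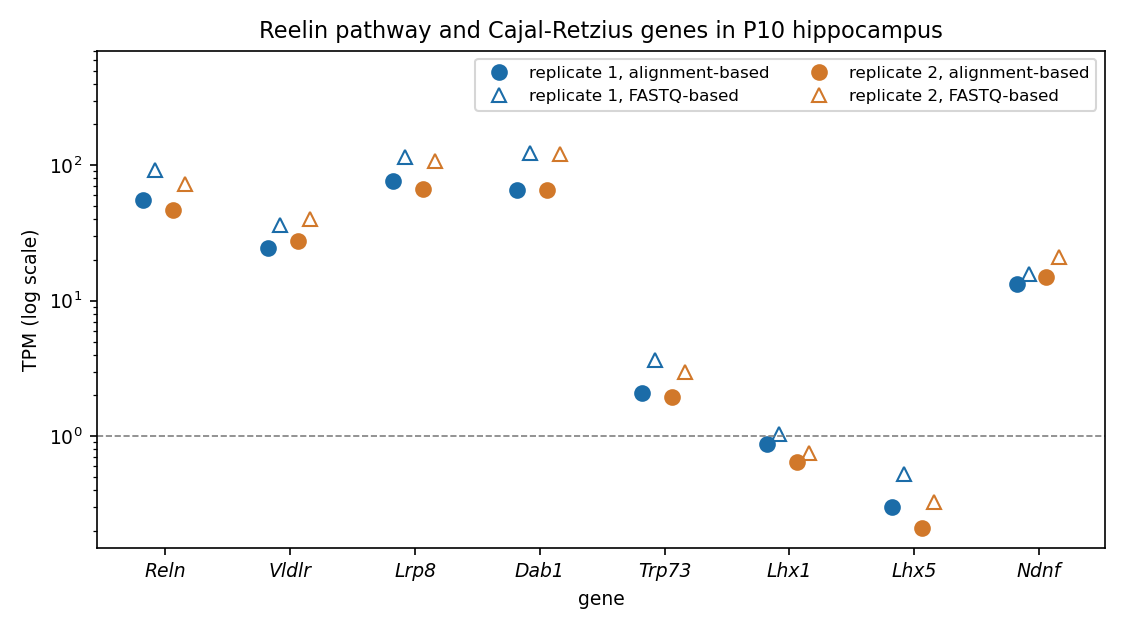
TPM (log scale) of the 8 genes in each library; filled circles are from alignments and open triangles from FASTQ files, blue for replicate 1 and orange for replicate 2, and the dashed line marks 1 TPM. Lrp8, Dab1 and Reln are highest, at means of 71.9, 65.8 and 51.1 TPM from alignments, and Lhx1 and Lhx5 lie below the line from alignments.

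By mean level the order was Lrp8, Dab1, Reln, Vldlr, Ndnf, Trp73, Lhx1 and Lhx5. The libraries of neighbouring genes in that order did not overlap, but the means of Lrp8 and Dab1, 71.9 and 65.8 TPM, differed by less than the SD of Lrp8. The order of Lrp8 and Dab1 turned round from FASTQ files, where Lrp8 averaged 111 ± 4.89 TPM and Dab1 123 ± 1.98 TPM (SD, n = 2 each). In all, 6 of the 8 genes had at least 1 TPM in both libraries. No gene is named for a pattern like theirs, since 2 libraries of 1 group give no pattern to compare.

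Both quantifications were set side by side as the log2 ratio of TPM from alignments over TPM from FASTQ files. The median over 18483 genes was -0.64, so values from FASTQ files were higher for most genes. The genes described here followed that shift, from -0.37 ± 0.178 for Ndnf to -0.90 ± 0.0180 for Dab1 (SD, n = 2 each) among the 6 that passed 1 TPM by either. None of these 6 was past 2-fold, against 22.6% of all genes, nor were any past 2-fold from the median, against 13.1% of all genes.

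The libraries were then compared with each other, which asks how far these 2 libraries differ and not how conditions differ. A mean of 100 counts or more was reached by 6 of the 8 genes, of which 2 were higher and 1 was lower in replicate 1. The call is a Benjamini-Hochberg adjusted p below 0.05 over 12879 genes by an exact binomial test on both sides, and 11.8% of all genes tested were called. Of the 6, 0 were past 2-fold, against 0.303% of all genes. The median absolute log2 ratio was 0.08 over the 6 genes and 0.07 over all genes tested. More counts let the test call a smaller ratio, and the shares of all genes given here and below are not matched for depth.

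Reln had 10847 counts in replicate 1, against 8907 in the library labelled male, replicate 2, a log2 ratio of 0.17 with a 95% counting interval of 0.13 to 0.21 (adjusted p = 8.16e-15, two-sided exact binomial test). Lrp8 had 6412 and 5455 counts, a log2 ratio of 0.12 with an interval of 0.07 to 0.17 (adjusted p = 0.000155, same exact test). Vldlr had 3099 and 3085 counts, which after scaling is a log2 ratio of -0.11 with an interval of -0.18 to -0.03 (adjusted p = 0.0358, same exact test). The call of Vldlr was lost with total counts as library sizes (adjusted p = 0.0519) and with no filter on low counts (adjusted p = 0.0679). All 3 differences are small, between 0.929-fold and 1.13-fold.

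Dab1, with 4384 and 4012 counts, had a log2 ratio of 0.02 with an interval of -0.05 to 0.08 (adjusted p = 0.856, exact binomial test). Ndnf and Trp73 had log2 ratios of -0.05 each, with intervals of -0.14 to 0.04 and -0.35 to 0.25. The interval of Trp73 is wide at this depth, and those of Lhx1, -0.45 to 0.79, and Lhx5, -0.66 to 1.76, are wider still. The binomial test covers counting error only, so a call says that the reads differ and not that replicates of the tissue would. The choroid plexus markers and the meningeal gene Ptgds, whose levels are given above and below, differ along the same split of libraries, and their part in these values was not tested.

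**Figure D4:**
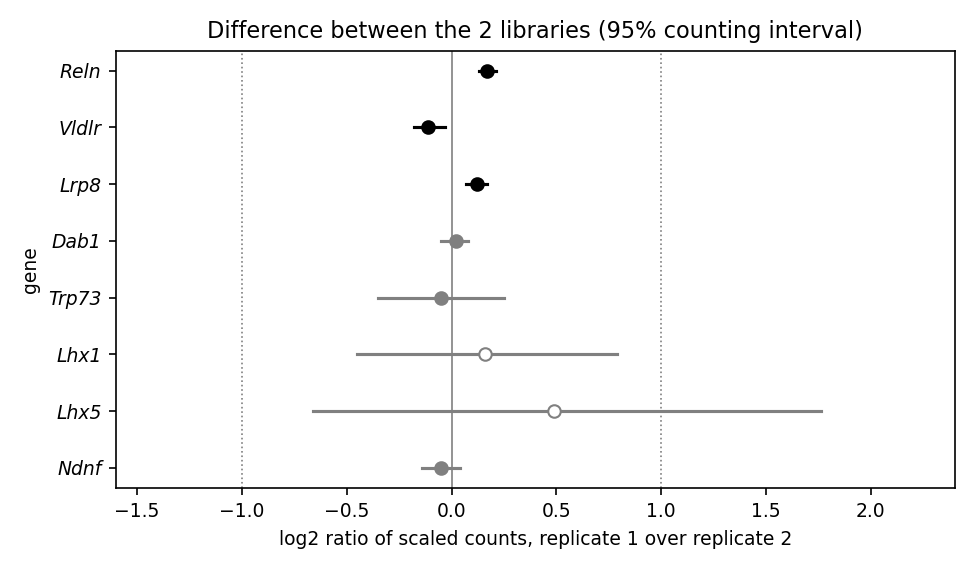
Log2 ratio of scaled counts, replicate 1 over the library labelled male, replicate 2, for each gene, with 95% counting intervals as lines. Black marks genes called at an adjusted p under 0.05, grey those not called and open circles genes under a mean count of 100; dotted lines are 2-fold, and no point reaches them.

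The genes that carry the signal inside the cell were all present. All 20 listed members of the relay had at least 1 TPM in both libraries. The highest was Cfl1, which encodes the actin-severing protein cofilin, at 800 ± 10.8 TPM. It was followed by Pafah1b1, the lissencephaly gene Lis1, at 185 ± 2.50 TPM, Stk25, a kinase that opposes reelin in neuronal polarity, at 167 ± 2.91 TPM, and Fyn, the Src family kinase that phosphorylates Dab1, at 107 ± 2.57 TPM (SD, n = 2 each). The lowest was Itga3, an integrin subunit, at 7.33 ± 1.64 TPM. In replicate 1, 5 of 20 were higher and 0 lower, where 5.50% of all genes were higher and 6.28% lower. These 5 were Pafah1b1, Pik3r1, Limk1, Crkl and Itga3, with log2 ratios of 0.06 to 0.38, and Pik3r1, Limk1 and Crkl were named after their values were seen. The median log2 ratio of the list was 0.02, beside 0.00 over all genes tested.

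Genes that cut reelin or turn over its receptors and adaptor were led by Lrpap1, the receptor chaperone RAP, at 59.5 ± 1.90 TPM. Snx17, a sorting nexin that recycles Lrp8, had 34.1 ± 0.622 TPM, and Socs7, part of the ubiquitin ligase that degrades active Dab1, had 31.7 ± 1.01 TPM. Adamts3, the main protease that cuts reelin at its N-terminal site, had 27.5 ± 1.46 TPM (SD, n = 2 each). Of 10 tested, 1 was higher and 2 lower in replicate 1, beside 5.50% and 6.28% of all genes, and the list median was -0.07. They were Plat at a log2 ratio of 0.31, Mylip at -0.28 and Adamts4 at -0.64, named after their values were seen.

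Among related receptors and other ligands, Apoe, the main brain apolipoprotein, averaged 1138 ± 63.5 TPM, and Clu, another apolipoprotein, 246 ± 14.4 TPM. Of the receptors, Lrp1 had 117 ± 1.39 TPM and Sorl1 39.6 ± 5.92 TPM, and Lrp2 was lowest at 0.320 ± 0.0141 TPM (SD, n = 2 each). Lrp8 thus stood between Lrp1 and Sorl1 in this family, and Vldlr below Sorl1. Of 8 tested, 2 were higher and 3 lower in replicate 1, where 5.50% of all genes were higher and 6.28% lower, and the list median was -0.05.

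Other genes known from Cajal-Retzius cells spanned a wide range. Calb2, which encodes the calcium-binding protein calretinin and is also active in interneurons, had 46.0 ± 2.02 TPM. Tbr1, a transcription factor shared with glutamatergic neurons, had 20.6 ± 0.919 TPM, Cxcr4, a chemokine receptor, 10.4 ± 0.361 TPM, and Cacna2d2, a calcium channel subunit, 9.29 ± 0.431 TPM. Nhlh2 had 2.12 ± 0.198 TPM and Ebf3 1.03 ± 0.163 TPM, both named after their values were seen. Ebf2 was lowest at 0.195 ± 0.0495 TPM (SD, n = 2 each). Of the 5 tested, 0 were called between the libraries by the exact binomial test, 0 had an unadjusted p under 0.05 and 0 were called with FASTQ-based counts.

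Interneurons that can hold reelin or Ndnf were represented by 10 genes, all detected. Sst, the neuropeptide of one reelin-positive class, had 214 ± 5.86 TPM and Gad1, a GABA-synthesis enzyme, 94.1 ± 0.255 TPM. Id2, enriched in neurogliaform cells, had 48.1 ± 2.51 TPM and Npy 44.7 ± 1.75 TPM, and Vip was lowest at 3.75 ± 0.219 TPM (SD, n = 2 each). Of the 10, 1 was called, Nr2f2 at a log2 ratio of 0.17, named after its value was seen, where 11.8% of all genes were called. The list median was 0.03.

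Markers of other cells in which Lhx1, Lhx5 or Trp73 can be active were looked at in turn. Of the thalamic list, Prkcd had 17.2 ± 0.742 TPM, Ntng1 12.7 ± 0.431 TPM, Lhx9 6.75 ± 0.700 TPM and Tcf7l2 6.63 ± 0.354 TPM (SD, n = 2 each), while Gbx2 had 8 counts in replicate 1, against 0 in the library labelled male, replicate 2. Of 4 thalamic genes tested, 0 were called, with 2 at an unadjusted p under 0.05 and 1 called with FASTQ-based counts. Of the Purkinje cell list, Itpr1, Gng13 and Car8, which other neurons also express, had 38.4 ± 4.06, 28.6 ± 4.22 and 4.64 ± 0.0849 TPM, Pcp2 had 2 and 6 counts, and Skor2 was at 0 in both libraries. Of 3 tested, 1 was lower in replicate 1, Itpr1 at a log2 ratio of -0.28, beside 6.28% of all genes. The ependymal list, relevant since Trp73 acts in ciliated cells, summed to 19.3 TPM in replicate 1, against 25.3 TPM in the library labelled male, replicate 2. It was led by Rsph1 at 7.90 ± 1.22 TPM, Foxj1, the main regulator of motile cilia, at 4.56 ± 0.424 TPM, Ccdc153 at 4.03 ± 1.12 TPM and Dynlrb2 at 2.36 ± 0.509 TPM, with Mcidas lowest at 0.155 ± 0.00707 TPM. Of 2 ependymal genes tested, 0 were called by the binomial test, 0 had an unadjusted p under 0.05 and 0 were called with FASTQ-based counts. The part of ciliated cells in the Trp73 level was not tested.

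By summed TPM the choroid plexus difference came mainly from Ttr, the transthyretin gene. It had 8.02 TPM in replicate 1, against 340 TPM in the library labelled male, replicate 2. Sostdc1 had 2.08 and 4.66 TPM, Folr1 0.590 and 4.97 TPM, Kl 1.76 and 2.08 TPM, and Otx2, the lowest, 0.330 and 1.14 TPM. Clic6 at 0.250 and 2.10, Aqp1 at 0.220 and 1.98 and Kcnj13 at 0.350 and 1.61 TPM went the same way. They were named after their values were seen and were under the count minimum of the test. Prlr, named after its value was seen, went the other way by TPM, at 1.99 and 0.840. Its log2 ratio of scaled counts was 0.05 and it was not called. Of 4 choroid plexus genes tested, 2 were lower in replicate 1, both past 2-fold, where 0.303% of all genes were past 2-fold in either direction. Of 7 meningeal genes tested, 4 were higher in replicate 1, beside 5.50% of all genes, and Ptgds, a prostaglandin synthase, was past 2-fold at 333 and 85.1 TPM. Dcn, Col1a1 and Col1a2 had 28.7 ± 0.113, 25.7 ± 2.11 and 23.4 ± 3.07 TPM, and Lum was lowest at 1.90 ± 0.0354 TPM (SD, n = 2 each). Endothelial sums over 5 genes were 76.0 TPM in replicate 1, against 77.1 TPM in the library labelled male, replicate 2. They ranged from Cldn5 at 40.0 ± 0.0707 TPM to Slco1a4 at 7.40 ± 0.983 TPM, and 1 of 5 tested was lower in replicate 1, beside the same 6.28% of all genes. Of the 6 hippocampal excitatory neuron genes, 4 were lower in replicate 1, where 6.28% of all genes were lower, with a list median of -0.10. Camk2a, among those called, had 62382 and 64922 counts, and the share of all genes is not matched for depth.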

How the data were processed

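The authors deposited gene and transcript tables from alignments to mm10 with GENCODE M21, per the labels and file descriptions, with expected counts, TPM, credibility bounds of TPM (an other unit, not printed here) and the percent of gene TPM per transcript. A further transcript table, deposited with estimated counts and TPM, was made from FASTQ files. No source used here names the tools or the strand setting, so reads of genes that overlap on opposite strands may not be told apart.

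All 55536 genes matched GENCODE M21. The 26248 rows named only by a number took 2.81e-05% and 2e-05% of counts and stayed out. The depth was 32035705 and 29747193 expected counts. TPM shares its total over all kinds of RNA in the tables, and nuclear protein-coding genes held 46.2% and 46.1% of it.

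Expected counts were rounded and scaled by TMM (edgeR 4.0.16, R 4.3.3). A mean of 100 counts or more was required for a two-sided exact binomial test (scipy 1.17.1) with Benjamini-Hochberg adjustment over all of them. Log2 ratios carry a prior count of 0.5, route ratios a pseudocount of 0.1 TPM, and intervals are Clopper-Pearson at 95%. No molecular identifiers are named, so intervals cover counting error only. On simulated data with 12881 genes, the test called 60.0% of 1.2-fold, 92.0% of 1.5-fold and 100% of 2-fold changes, and 0.0315% of unchanged genes. The simulated counts held counting error only, as the test assumes, and no spread between animals. The 0.0315% is therefore not a rate of false calls between these libraries. Median-of-ratios size factors came from DESeq2 1.42.0.

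Transcript shares and exon inclusion are sums of transcript TPM, and junction reads were not analysed here. An exon counts as skipped where an intron of another transcript contains it whole. Sequences come from GENCODE M21 transcripts and the RefSeq promoter table. The members and the 12 lists of 103 genes were chosen with earlier results of these data known. Named were all members, transcripts at 5% or more, the 4 highest and the lowest gene of each list, and list genes called at 2-fold. Of these, 1 list gene is not reported here. The parental alleles were not analysed here.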

Additional observations from a re-analysis of the deposited data

How the results depend on the processing

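In units not divided by length, Lrp8 over Vldlr had a log2 ratio of 0.94, Lrp8-202 held 72.0% of Lrp8 and Dab1-203 held 81.4% of Dab1. From FASTQ files Lrp8-202 held 40.0% and Dab1-203 held 37.3%. Each remained the leading transcript of its gene in all of these. Leaving out 1 library gave 1.28 to 1.66 for the receptor ratio, 42.4% to 44.7% for Lrp8-202 and 47.5% to 48.3% for Dab1-203. Trp73 changed sign to a log2 ratio of 0.02 with FASTQ-based counts (adjusted p = 0.970, exact binomial test) and was not called either way. The number of members called was 3, and 2 with total counts or with no filter. With TPM over nuclear protein-coding genes alone, 7 of 8 members passed 1 TPM, against 6. The list genes called were 26 of 84 tested, where 11.8% of all genes were called, and 26 to 30 under the other scalings and FASTQ-based counts. Centring the route ratios on the median of all genes was chosen after seeing the data and left 0 of 6 members past 2-fold. No paired analysis was possible because the design has 1 group. Depth limits Lhx1, Lhx5 and the transcript shares of Trp73, which rest on 193 and 185 counts or fewer.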
